A study of Mus musculus with 18 samples.

Results

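Metabolite-sensing receptors are G protein-coupled receptors at the cell surface that bind small intermediates of energy metabolism or products of fat and of gut microbes. The 7 genes Sucnr1, Ffar1, Ffar2, Ffar3, Ffar4, Gpr35 and Hcar2, chosen by name as a fixed list, are described here in tracheal brush cells, in tracheal epithelium and in tracheal hematopoietic cells. SUCNR1 is the receptor for succinate, an intermediate of the citric acid cycle. FFAR1 and FFAR4 bind long-chain fatty acids, and FFAR2 and FFAR3 bind the short-chain fatty acids that microbes release. HCAR2 binds the ketone body beta-hydroxybutyrate and niacin, and GPR35 responds to kynurenic acid among other proposed ligands. In the small intestine, succinate from microbes is known to act through SUCNR1 on tuft cells, the gut counterpart of brush cells, which then release the cytokine IL-25.

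All 7 of the listed genes had a row in the table of 26327 genes, so none was absent from it. Sucnr1, Hcar2, Ffar4, Gpr35 and Ffar2 passed the filter on low counts. Ffar1 and Ffar3 did not, with 2 and 3 counts in all 18 libraries together.

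RNA was sequenced from cells of naive, untreated mice of the line B6.Cg-Tg(RP23-268L19-EGFP)2Mik, with the suffix J of the Jackson Laboratory. Its bacterial artificial chromosome transgene expresses eGFP from regulatory sequence of Chat, the gene of choline acetyltransferase. All 3 groups came from this line. The 7 brush libraries held cells negative for the leukocyte antigen CD45 and positive for the epithelial antigen EpCAM and for eGFP. The 7 EpCAM+ libraries held CD45-negative, EpCAM-positive cells, and this gate as worded does not leave out eGFP-positive cells. The 4 CD45+ libraries held hematopoietic cells of mixed kinds. The labels do not say how many animals gave each library, so a p-value here speaks of the spread between libraries, part of which may be technical.

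Total counts were 838328 to 6031711 in brush, 2442601 to 6087184 in EpCAM+ and 371652 to 7438791 in CD45+ libraries. The summed level of 10 brush cell markers was 10055 to 12498 CPM (counts per 1e6 reads, after scaling for library composition) in brush, 8.94 to 40.1 CPM in EpCAM+ and 425 to 799 CPM in CD45+ libraries. In CD45+ cells the markers Trpm5 and Gnat3 had means of 0.651 and 0.633 CPM, Il25 and Pou2f3 were at 0, and Plcb2 was at 44.6. The CD45+ sum thus came mostly from other genes of the list. That of 5 general leukocyte markers was 13.6 to 36.6, 0 to 3.21 and 4989 to 5913 CPM. In brush, 573 of the 709 counts in this leukocyte sum were those of Ptprc, the gene of CD45. In all 3 libraries stood apart from their groups, with a median Spearman correlation to their own group of 0.849 (brush replicate 4), 0.81 (EpCAM+ replicate 5) and 0.759 (CD45+ replicate 1). Of these, CD45+ replicate 1 was also the shallowest library of all 18. Several receptor means in CPM are given with and without one of them, while TPM values and percentages are given with all libraries only.

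The genes lie at 5 places in the mouse genome (GENCODE annotation on GRCm38, none overlapping another annotated gene). Sucnr1 is on the plus strand of chr3:60081869-60087566 with 2 coding exons, and Ffar4 on the plus strand of chr19:38097071-38114263 with 3. The other members have their coding sequence in 1 exon. Gpr35 spans chr1:92950865-92986391 on the plus strand, and Hcar2 chr5:123863570-123865499 on the minus strand, 11237 bases from its relative Hcar1. Ffar2 (chr7:30818348-30823775), Ffar3 (chr7:30854330-30856178) and Ffar1 (chr7:30857390-30861564) are neighbours on the minus strand of chromosome 7, with 1212 bases between Ffar1 and Ffar3.

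The 250 bases before the annotated start are shown for Sucnr1, Ffar4 and Gpr35 because each was highest in a different group. They come from RefSeq (GRCm38.p6), 5′ to 3′ on the gene's strand, at chr3:60081619-60081868, chr19:38096829-38097078 and, for the first of the RefSeq Gpr35 starts, chr1:92972869-92973118. This Gpr35 window lies inside the GENCODE span given above and not at its 5′ end. The capitals in the Sucnr1 sequence mark the octamer motif ATGCAAAT, the sequence that POU-domain factors are known to bind. POU2F3, which brush and tuft cells need to form, is a member of that family.
Sucnr1: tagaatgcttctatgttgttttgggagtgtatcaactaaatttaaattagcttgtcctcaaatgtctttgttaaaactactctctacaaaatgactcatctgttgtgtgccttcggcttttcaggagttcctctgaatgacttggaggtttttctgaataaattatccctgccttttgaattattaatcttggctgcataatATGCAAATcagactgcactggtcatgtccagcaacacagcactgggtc
Ffar4: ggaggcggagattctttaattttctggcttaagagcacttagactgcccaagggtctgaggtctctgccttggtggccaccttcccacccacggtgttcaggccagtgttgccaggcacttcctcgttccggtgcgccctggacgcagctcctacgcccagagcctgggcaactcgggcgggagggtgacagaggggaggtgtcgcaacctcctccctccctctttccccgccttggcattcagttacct
Gpr35: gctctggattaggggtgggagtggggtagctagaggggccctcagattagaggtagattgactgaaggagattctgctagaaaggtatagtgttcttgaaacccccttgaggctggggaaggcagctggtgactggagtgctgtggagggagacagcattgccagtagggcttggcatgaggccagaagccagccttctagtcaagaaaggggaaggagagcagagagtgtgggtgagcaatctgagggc
The octamer, searched as ATGCAAAT and as its reverse complement ATTTGCAT, began 48 and ended 41 bases before the Sucnr1 start. Neither form occurred in the other 9 windows of the 6 members that matched the RefSeq table. Hcar2 had no match there, so its window was not searched. Over all genes, 526 of 32851 windows of this length (1.60%) held it. The match is a description of these letters and no evidence of binding. The Sucnr1 window was 38% G and C with 1 CpG, the Ffar4 window 61.2% with 11 CpGs and the Gpr35 window 55.2% with 0, against medians of 52.4% and 6 CpGs over all windows.

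Brush cells were compared with EpCAM+ epithelium to ask which receptors mark them within the epithelium, and each was compared with CD45+ cells. The receptors divided between the 3 sorted populations. Sucnr1 was a brush cell gene, at 187 ± 49.5 CPM (SD, n = 7), with not a single count in any EpCAM+ or CD45+ library. Hcar2 and Ffar4 were highest in EpCAM+ cells, and Gpr35 and Ffar2 in CD45+ cells. Across the 5 tested members, brush against EpCAM+ gave 1 higher, 2 lower and 2 that did not pass an adjusted p of 0.05 (edgeR's quasi-likelihood test, Benjamini-Hochberg over 13418 genes). Over all genes tested in that comparison, 40.3% were called, 18.3% higher and 22% lower. Brush against CD45+ gave 1 higher and 4 lower, beside 45.8% of all genes called, 23.4% higher and 22.4% lower. EpCAM+ against CD45+ gave 2 higher and 2 lower, beside 40.5% of all genes called, 22.5% higher and 18.1% lower. The median log2 fold change of the 5 tested members was -1.91 against EpCAM+ and -2.35 against CD45+, where the medians of all tested genes were -0.06 and 0.05. The 5 genes are few, and Ffar2 and Gpr35 passed the filter through their counts in CD45+ cells, so these medians carry little. In sorted bulk RNA, fewer cells of a type and less RNA per cell cannot be told apart.

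**Figure D1:**
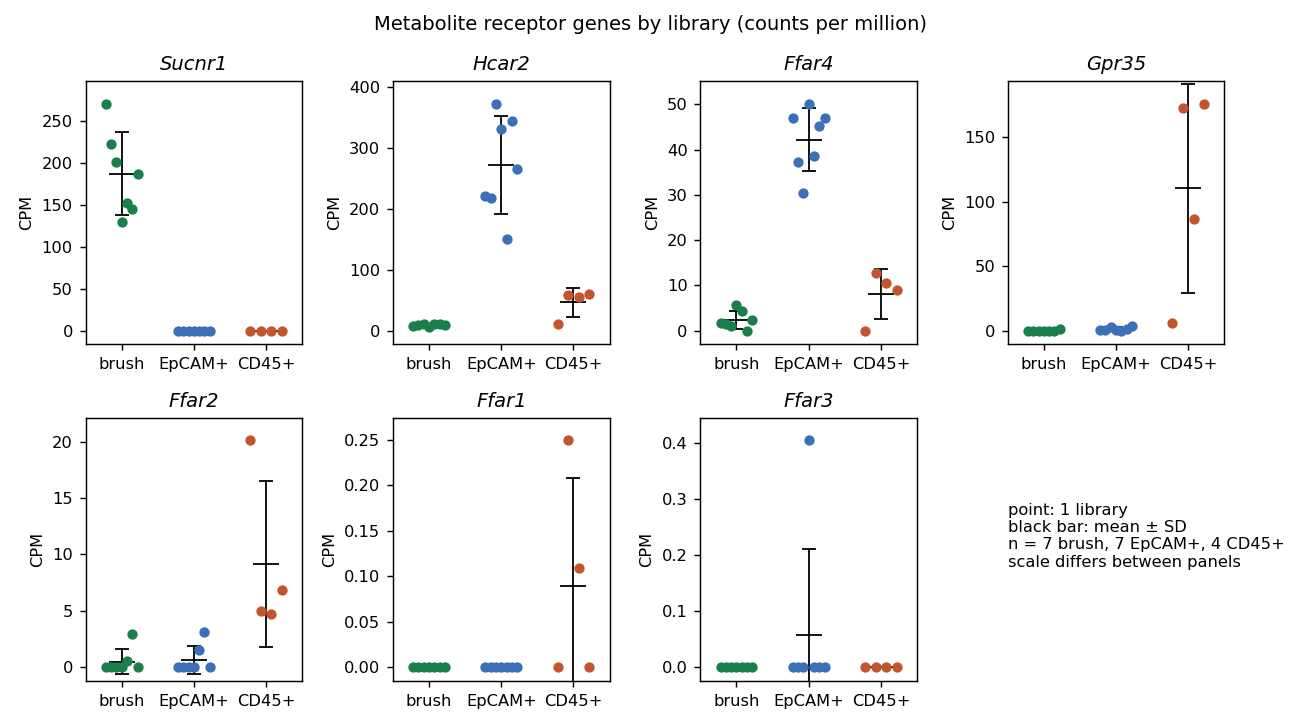
Level of each receptor gene in every library, in CPM on a linear scale that differs between panels, with points for libraries and black bars for the mean ± SD of 7 brush, 7 EpCAM+ and 4 CD45+ libraries. Sucnr1 lay between 130 and 271 CPM in brush and at 0 in all other libraries, Hcar2 and Ffar4 were highest in EpCAM+, and Gpr35 and Ffar2 were highest in CD45+.

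Sucnr1, the succinate receptor, was present in every brush library. In brush replicates 1 to 7 it stood at 271, 223, 202, 130, 152, 146 and 187 CPM, from 1493, 1101, 744, 69, 280, 682 and 1575 counts. The lowest of these, replicate 4, was the shallowest brush library, and without it the mean was 197 ± 46.6 CPM (n = 6). All 7 EpCAM+ and all 4 CD45+ libraries had 0 counts, so no library outside brush came near the brush range. Against the level that 3 counts over a whole group would give, 0.0986 CPM in EpCAM+ and 0.172 CPM in CD45+ cells, Sucnr1 was at least 1899-fold higher in brush than in EpCAM+ cells and at least 1088-fold higher than in CD45+ cells. Leaving out any 1 brush library kept these bounds at 1758 to 1996 and at 1007 to 1143. The adjusted p was 2.78e-10 against EpCAM+ and 3.35e-09 against CD45+ (edgeR). Ranges that do not overlap were found for 20.3% of all genes in brush against EpCAM+, 30.5% in brush against CD45+ and 27.2% in EpCAM+ against CD45+.

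Other brush cell genes differed in how far they were seen outside brush. Il25, the cytokine of tuft cells, had 4732 counts in brush and, like Sucnr1, 0 in both other groups. Trpm5, the cation channel of taste-like signalling, had 33 counts in EpCAM+ and 16 in CD45+ libraries, which is 0.0445% and 0.028% of its mean level in brush. Gnat3, the alpha subunit gustducin, was at 0.0475% and 0.0189% of its brush level. Pou2f3, at 193 CPM in brush, had 49 counts in EpCAM+ (1.92 CPM) and 0 in CD45+ libraries. A count of 0 was thus not particular to Sucnr1, and the traces of the other genes in EpCAM+ cells ranged from 0 to that of Pou2f3. The 0 of Sucnr1 does not set it apart from Trpm5 and Gnat3, which had 76274 and 82329 brush counts against its 5944. Its 1899-fold over EpCAM+ cells is a lower bound, so it cannot be ranked against their fitted 2177-fold and 2105-fold.

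On a scale that corrects for transcript length (TPM, transcripts per 1e6 transcripts), Sucnr1 was the leading member in brush cells by a wide margin. Its TPM in brush replicates 1 to 7 was 295, 254, 199, 57.1, 136, 159 and 287, a mean of 198 ± 87.3 (SD, n = 7). Its rank by TPM among 47164 gene symbols was 425 to 1301 in these libraries, with a median of 503. The 7 receptors together were 95.2% Sucnr1 in the mean brush library (93.0% to 97.3%). The next receptor in brush, Hcar2, reached 6.76 ± 2.39 TPM, and the 2 ranges did not overlap. Ffar4 followed at 1.84 ± 1.35 TPM with a range that overlapped that of Hcar2, and the remaining 4 members had a median of 0 TPM in brush.

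**Figure D2:**
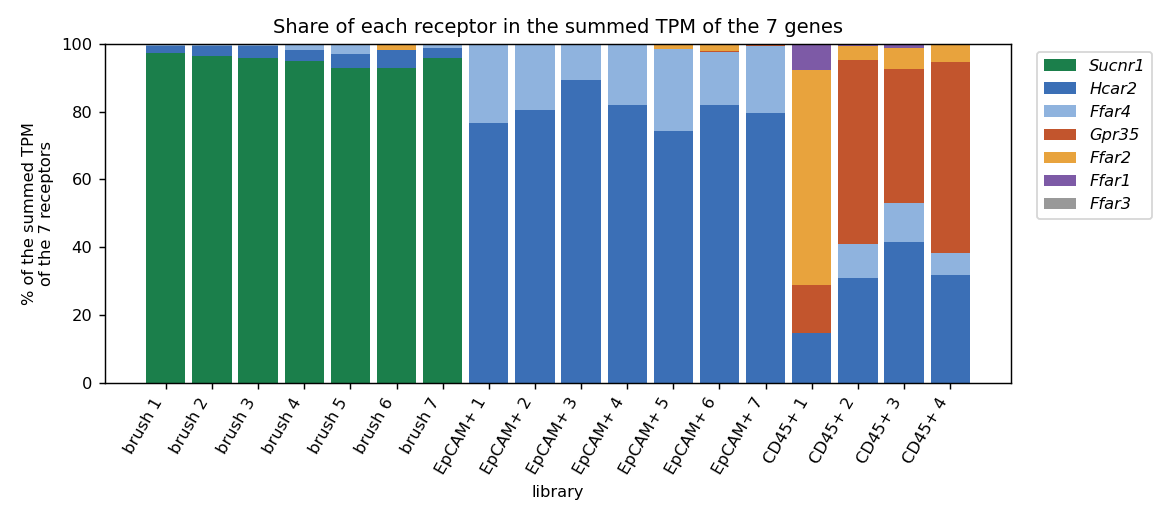
Share of each receptor in the summed TPM of the 7 genes, one stacked bar for each of the 18 libraries, in percent. Sucnr1 filled 93.0% to 97.3% of each brush bar, Hcar2 74.3% to 89.3% of each EpCAM+ bar, and the CD45+ bars were mixed, with CD45+ replicate 1 unlike the other 3.

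Hcar2, the beta-hydroxybutyrate and niacin receptor, was the leading member in EpCAM+ epithelium. In EpCAM+ replicates 1 to 7 it stood at 221, 217, 372, 330, 150, 345 and 264 CPM, a mean of 271 ± 80.8 (SD, n = 7), or 292 ± 66.3 without replicate 5. In brush replicates 1 to 7 it stood at 7.80, 9.93, 11.1, 5.66, 11.4, 10.5 and 8.80 CPM, a mean of 9.31 ± 2.05. Every brush library was below every EpCAM+ library. The fitted difference was 28.5-fold, a log2 fold change of -4.83 ± 0.34 (SE) with an adjusted p of 1.84e-10 (edgeR). In CD45+ replicates 1 to 4 Hcar2 stood at 11.5, 59.1, 55.8 and 59.7 CPM. Replicate 1 was thus far below the other 3, whose mean was 58.2 ± 2.06 CPM, against 46.5 ± 23.4 CPM with it. Brush was lower than CD45+ (-2.35 ± 0.34, adjusted p 4.65e-06) and EpCAM+ was higher than CD45+ (2.49 ± 0.38, adjusted p 9.24e-06, edgeR). The order of Hcar2 was EpCAM+, CD45+, brush. The ranges of CD45+ and brush met without overlapping, since CD45+ replicate 1 at 11.49 CPM (4 counts) lay just above the highest brush library at 11.43 CPM.

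Ffar4, a receptor for long-chain fatty acids, shared the order of Hcar2 at a lower level. In EpCAM+ replicates 1 to 7 it stood at 46.9, 37.2, 30.5, 50.1, 38.6, 45.3 and 46.9 CPM, a mean of 42.2 ± 6.98 (SD, n = 7). In brush replicates 1 to 7 it stood at 1.63, 1.42, 1.08, 5.66, 4.35, 0 and 2.26 CPM, a mean of 2.34 ± 1.98 from 50 counts in all. The highest value, that of replicate 4, rests on 3 counts, and without it the mean was 1.79 ± 1.46 CPM. Again every brush library lay below every EpCAM+ library. The fitted difference was 22.8-fold (-4.51 ± 0.49, adjusted p 1.09e-07, edgeR). In CD45+ replicates 1 to 4 it stood at 0, 12.7, 10.6 and 8.89 CPM, a mean of 8.06 ± 5.59, or 10.7 ± 1.91 without replicate 1. The difference between brush and CD45+ passed the test (-2.35 ± 0.53, adjusted p 0.000769), although the 0 in CD45+ replicate 1 made the ranges overlap. EpCAM+ was higher than CD45+ with no overlap (2.16 ± 0.52, adjusted p 0.00152, edgeR).

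Per transcript, Hcar2 stood at 150 ± 61.9 TPM and Ffar4 at 31.9 ± 10.6 TPM in EpCAM+ cells. Their ranges overlapped, but Hcar2 was above Ffar4 within each of the 7 libraries. Hcar2 made up 80.6% and Ffar4 18.6% of the summed receptor TPM there, and Ffar2, Gpr35 and Ffar3 the little that remained.

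Markers of other epithelial cells and of fibroblasts were read beside these levels. The sum of 3 fibroblast genes was 251 to 519 CPM in EpCAM+, 0.544 to 14.2 in brush and 4.74 to 30.4 in CD45+ libraries. The EpCAM+ libraries thus held fibroblast transcripts, and their part in the receptor levels there was not tested. In brush, Hcar2 was at 3.43% of its EpCAM+ mean (2.08% to 4.21% over libraries) and Ffar4 at 5.55% (0% to 13.4%). The 13.4% was that of brush replicate 4, from 3 counts. Summed over 5 basal cell genes the brush level was 4.83% of that in EpCAM+ cells (2.07% to 6.81%), and over 5 club and goblet cell genes it was 2.13% (0.298% to 4.26%). The sum of 5 ciliated cell genes stood higher, at 19.7% in brush and 55.8% in CD45+ libraries. The brush values of both receptors were of the size of the basal and club or goblet sums, and whether other epithelial cells gave the brush counts was not tested. In CD45+ cells the basal and the club and goblet sums were at 0.843% and 0.868% of the EpCAM+ level, while Hcar2 was at 17.1% (4.23% to 22%) and Ffar4 at 19.1% (0% to 30.1%). EpCAM+ replicate 5 had the lowest Hcar2 level, 150 CPM, and also the lowest basal sum (756 CPM) and the highest club and goblet sum (128997 CPM) of its group. The part of cell makeup in that value was not tested.

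**Figure D3:**
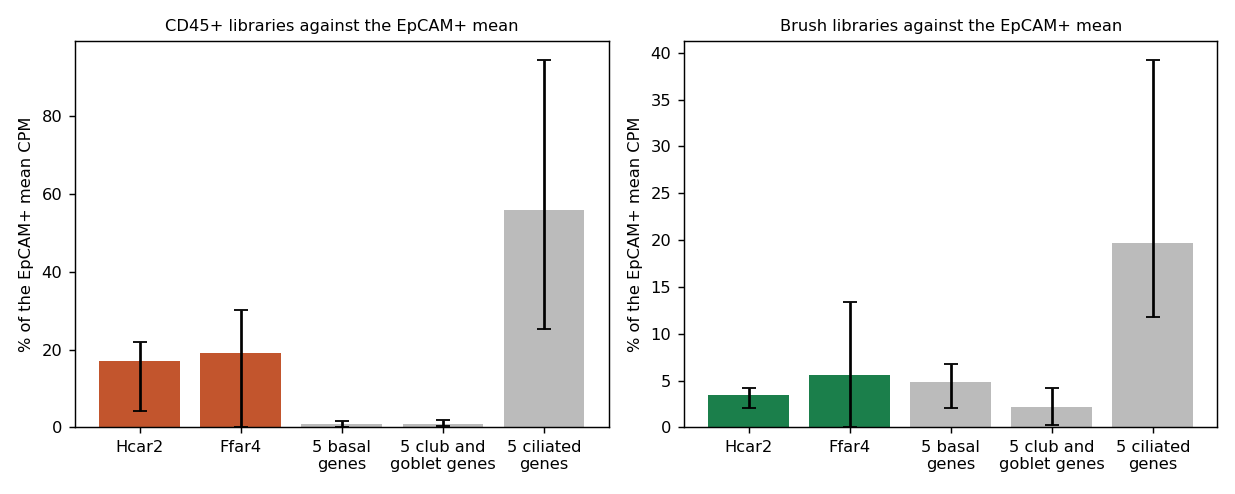
Hcar2 and Ffar4 (coloured bars) in CD45+ libraries (left) and brush libraries (right), as a percent of their mean CPM in EpCAM+ libraries, beside summed basal, club or goblet, and ciliated cell genes (grey bars), with lines for the lowest and highest library. In CD45+ libraries the receptors stood at 17.1% and 19.1%, the basal and the club or goblet sums below 1% and the ciliated sum at 55.8%, and in brush the receptors at 3.43% and 5.55% stood beside sums of 4.83%, 2.13% and 19.7%.

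Gpr35, for which kynurenic acid is among the proposed ligands, was a gene of CD45+ cells. In CD45+ replicates 1 to 4 it stood at 5.75, 172, 86.7 and 176 CPM, a mean of 110 ± 80.9 (SD, n = 4). Replicate 1, where the value rests on 2 counts, was far below the others, and without it the mean was 145 ± 50.5 CPM. In EpCAM+ replicates 1 to 7 it stood at 0.401, 0.425, 2.60, 0.404, 0, 1.15 and 3.24 CPM, from 36 counts in all. In brush 6 of the 7 libraries had no count, and replicate 7 had 10 counts, or 1.19 CPM. All brush and EpCAM+ libraries were thus below all CD45+ libraries. Brush was lower than CD45+ with a log2 fold change of -8.44 ± 0.89 (adjusted p 4.10e-08), and EpCAM+ was lower than CD45+ by -6.53 ± 0.76 (adjusted p 2.16e-07, edgeR). All 10 brush counts came from replicate 7, so without that library the brush level is 0 and the fold has no fitted size.

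Between brush and EpCAM+ cells the Gpr35 difference did not pass the test (-1.91 ± 0.93, adjusted p 0.109, edgeR). It did pass without brush replicate 7, which leaves brush at 0 (adjusted p 0.0115), and with the replicate number as a block (-2.62 ± 0.81, adjusted p 0.0153). The EpCAM+ level of Gpr35 was 1.07% of its CD45+ level, where 5 general leukocyte genes were at 0.0238% and 6 macrophage genes at 0.0638%. The brush level was 0.154% of the CD45+ level, beside 0.489% for the general leukocyte genes. Most of that leukocyte sum in brush was Ptprc, with 573 of 709 counts, against 14334 of 90703 in CD45+ libraries. The 0.489% is thus not a level shared by the listed genes. Whether Gpr35 in brush lay below a general leukocyte trace was not tested.

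Ffar2, a receptor for short-chain fatty acids that is known from neutrophils and other leukocytes, was low everywhere. In CD45+ replicates 1 to 4 it stood at 20.1, 4.99, 4.71 and 6.86 CPM, from 97 counts in all. The high value is that of replicate 1 and rests on 7 counts. With it the mean was 9.17 ± 7.36 CPM, and without it 5.52 ± 1.17 CPM. Brush had counts in 2 libraries, replicate 5 (0.544 CPM, 1 count) and replicate 6 (2.99 CPM, 14 counts). EpCAM+ had counts in 2 as well, replicate 5 (1.54 CPM, 5 counts) and replicate 6 (3.17 CPM, 11 counts). No CD45+ library overlapped either group. The 5 summed neutrophil genes had 6 counts in all brush and 5 in all EpCAM+ libraries together, of which brush replicate 6 had 3 and EpCAM+ replicate 6 had 1.

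CD45+ cells exceeded both groups in Ffar2, but only just. The log2 fold change was -3.79 ± 1.22 for brush against CD45+ (adjusted p 0.0136) and -3.62 ± 1.19 for EpCAM+ against CD45+ (adjusted p 0.0171, edgeR). By DESeq2 the adjusted p was 0.0995 and 0.143, so neither call held with that tool. The sizes also rest on single libraries, since brush had 1 count left without replicate 6, and the second difference was -5.06 without EpCAM+ replicate 6. The difference between brush and EpCAM+ did not pass the test (-0.17 ± 1.19, adjusted p 0.934), with means of 0.504 and 0.673 CPM that fell to 0.0907 without brush replicate 6 and to 0.257 without EpCAM+ replicate 6.

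Ffar1 and Ffar3, the receptors for long-chain and short-chain fatty acids beside Ffar2 on chromosome 7, were at or near 0. Ffar1 had 0 counts in all brush and EpCAM+ libraries and 1 count each in CD45+ replicates 2 and 3. Ffar3 had 3 counts, all in EpCAM+ replicate 4, and none elsewhere. A group total of 0 allows up to 0.101 CPM in brush and 0.0986 CPM in EpCAM+ cells. For Ffar1 the exact two-sided permutation test between CD45+ and either other group gave p = 0.109 (adjusted 0.218 over 4 tests), and for Ffar3 it gave p = 1. In the count table no difference in these genes was detectable at this depth. For Ffar1 this depends on how reads were counted, since the RSEM files gave it 5, 13, 36 and 2 expected counts in CD45+ replicates 1 to 4 and 0 in all other libraries.

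In CD45+ cells, no one receptor led in all libraries. Gpr35 had the highest mean per transcript, 34.2 ± 21.9 TPM (SD, n = 4), followed by Hcar2 at 23.8 ± 14.04, Ffar2 at 7.15 ± 5.43 and Ffar4 at 6.13 ± 4.57 TPM. Each of these ranges overlapped the next, and Gpr35 was above Hcar2 in 2 of the 4 libraries. Ffar2 was above Ffar4 only in replicate 1, at 15.3 against 0 TPM, where its value rests on 6 expected counts. In replicates 2 to 4 Ffar4 was the higher of these 2. Gpr35 made up 41.2% of the summed receptor TPM in the mean library, from 14.2% in replicate 1 to 56.6%. Ffar2 made up 63.6% in replicate 1 and a median of 5.62% over the 4. CD45+ replicate 1 also had the highest summed T, NK and innate lymphoid genes, 1201 CPM against 99.5 to 509 in the others, and the lowest summed dendritic cell genes, 161 CPM against 559 to 1426. The part of cell makeup and of depth in its receptor levels was not tested.

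**Figure D4:**
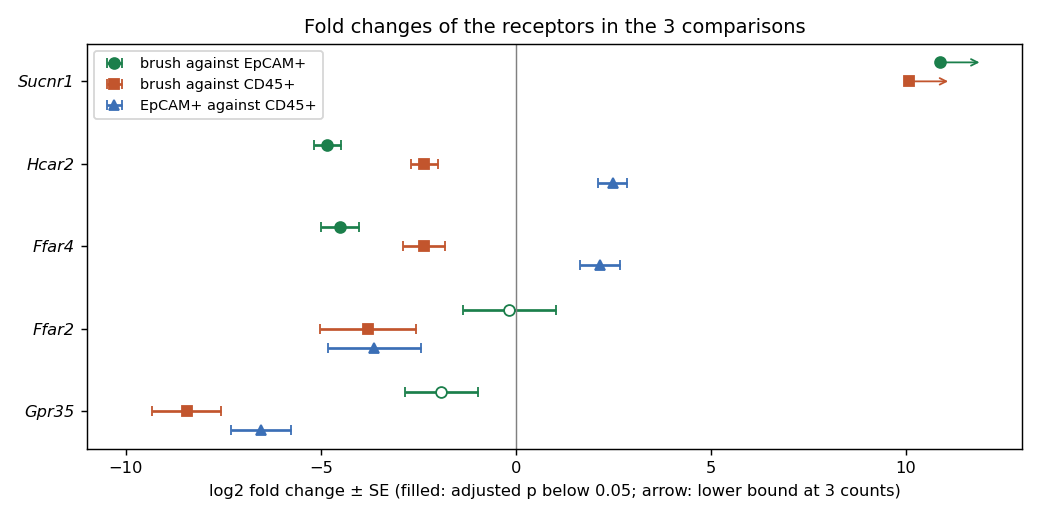
Log2 fold change ± SE of the 5 tested receptors in the 3 comparisons (edgeR), with filled symbols for an adjusted p below 0.05 and arrows for Sucnr1, whose points are lower bounds set at 3 counts. Hcar2 and Ffar4 were near -4.83 and -4.51 in brush against EpCAM+, and the open symbols are Ffar2 and Gpr35 in that comparison.

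The genes whose pattern over the 18 libraries was most like that of each receptor were sought among 12061 genes by the Pearson correlation of log2(CPM + 1). The libraries fall into 3 groups that all these genes share, so the correlations are a description. For Sucnr1 they were Nefl, Ms4a15 and St6gal2 (each r = 0.9981) and Olfr461 (0.9978). For Hcar2 they were Trim16 (0.9775), Cyp2s1 (0.977), Baiap2 (0.9733) and Mfge8 (0.9731). For Ffar4 they were Shmt1 (0.9567), Rnd3 (0.9423), Sorbs3 (0.9363) and again Cyp2s1 (0.9356). For Gpr35 they were Bst1 (0.982), Ctla4 (0.9733), St6galnac4 (0.9711) and Cd300lb (0.97). For Ffar2 none exceeded AA467197 (0.9101), ahead of G430095P16Rik (0.9075), Snn (0.9) and Tespa1 (0.8999).

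In all 16 further metabolite and nutrient receptors were read for context, of which 8 passed the filter. In brush against EpCAM+ cells 2 rose, 3 fell and 3 did not pass the test, where 18.3% of all genes were higher and 22% lower. Tas1r3, the shared subunit of the sweet and umami taste receptors, was at 122 ± 47.3 CPM in brush and 0.720 ± 0.637 in EpCAM+ cells (7.20 ± 0.45, adjusted p 3.96e-11, edgeR). Its partners Tas1r1 and Tas1r2 did not pass the filter. Casr, the calcium-sensing receptor, was at 14.7 ± 4.54 and 1.25 ± 2.12 CPM (3.40 ± 0.73, adjusted p 0.00057). Per transcript, Sucnr1 at 198 ± 87.3 TPM stood above Tas1r3 at 45.6 ± 30.0 and Casr at 4.15 ± 2.43 TPM in brush.

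The 3 receptors that fell were low in both groups. Gpbar1, the bile acid receptor, was at 0.366 ± 0.703 CPM in brush and 2.32 ± 0.553 in EpCAM+ cells (-2.35 ± 0.77, adjusted p 0.0183, edgeR). Hcar1, the lactate receptor beside Hcar2, was at 0.426 ± 1.13 and 3.13 ± 2.51 CPM (-2.78 ± 0.97, adjusted p 0.0257). Its call was lost without brush replicate 1, 2 or 7 or EpCAM+ replicate 3 (adjusted p 0.0502 to 0.0552) and with DESeq2 (adjusted p 0.0521). Gpr132, a receptor for oxidised fatty acids, had 0 counts in brush and 11 in EpCAM+ cells, at least 3.30-fold lower in brush (adjusted p 0.0144, and 0.19 with limma voom). It passed the filter through CD45+ cells, where it was at 80.8 ± 40.6 CPM. None of these 3 genes passed the filter when only the 2 groups were fitted. The median log2 fold change of the 8 was 0.11, beside -0.06 for all tested genes, with Gpr65, which had 0 and 1 counts, next to it in order.

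Receptors of this kind signal through G proteins, mostly of the Gi and Gq classes, phospholipase C beta, inositol trisphosphate receptors, arrestins and receptor kinases. Of 30 such genes 26 were tested, with a median log2 fold change of 0.61 in brush against EpCAM+ cells. Of the 26, 12 rose, 7 fell and 7 did not pass, where 18.3% of all genes were higher and 22% lower. The largest rises were those of Trpm5 (11.09 ± 0.68), Gnat3 (11.04 ± 0.90) and Plcb2 (9.32 ± 0.60), the channel, G protein and phospholipase of the taste cascade all 3 of them also on the list of 10 brush markers. The largest falls were those of Gna15 (-5.12 ± 0.40), a promiscuous Gq-class subunit, Plcb4 (-3.56 ± 0.43) and Plcb1 (-2.54 ± 0.66), with adjusted p of 8.75e-10, 4.73e-07 and 0.00339 (edgeR). Gna15 was at 0.946 ± 0.471 CPM in brush, 37.6 ± 15.5 in EpCAM+ and 53.7 ± 28.2 in CD45+ cells.

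Genes that make, use or carry succinate were read next. Of 16 listed 14 were tested, and in brush against EpCAM+ cells 2 rose, 2 fell and 10 did not pass, where 40.3% of all genes were called, with a median log2 fold change of -0.34. Aldh5a1, which oxidises succinic semialdehyde to succinate, was at 8.39 ± 3.89 CPM in brush and 2.35 ± 0.927 in EpCAM+ cells (1.79 ± 0.56, adjusted p 0.0131, edgeR). Slc13a2, a sodium-coupled carrier of succinate and citrate, was at 0.284 ± 0.609 and 4.75 ± 2.95 CPM (-4.27 ± 0.95, adjusted p 0.000839, edgeR). Slc13a2 did not pass the filter when only the 2 groups were fitted. The calls of Sdha, a subunit of succinate dehydrogenase (1.01 ± 0.39, adjusted p 0.0439), and of Slc25a10, the mitochondrial dicarboxylate carrier (-0.85 ± 0.30, adjusted p 0.0264), were weak. That of Sdha was lost in 12 of 29 alternatives, among them leaving out brush replicate 1, 2, 3, 6 or 7 or EpCAM+ replicate 1, 4, 5, 6 or 7 (adjusted p 0.0502 to 0.0837). That of Slc25a10 was lost in 6, among them leaving out brush replicate 5 or EpCAM+ replicate 4 or 6 (adjusted p 0.0523 to 0.0621).

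Genes of fatty acid, ketone body and kynurenine handling, which bear on the ligands of the other members, moved in both directions. Of 31 listed 25 were tested, with a median log2 fold change of 0.30 in brush against EpCAM+ cells. Of the 25, 8 rose, 7 fell and 10 did not pass, where 18.3% of all genes were higher and 22% lower. Among those that rose, Mgll, which splits monoacylglycerol into fatty acid and glycerol, was at 56.8 ± 17.7 CPM in brush and 12.9 ± 6.42 in EpCAM+ cells (2.13 ± 0.41, adjusted p 0.000184, edgeR). Acsl4, an acyl-CoA synthetase that prefers arachidonic acid, was at 131 ± 36.7 and 37.1 ± 13.1 CPM (1.83 ± 0.30, adjusted p 3.09e-05). Lpl, lipoprotein lipase, was at 1.97 ± 1.96 and 0.499 ± 0.421 CPM (2.28 ± 0.71, adjusted p 0.013), a call lost without brush replicate 7 (adjusted p 0.0735) and with limma voom (adjusted p 0.15). It was at 246 ± 179 CPM in CD45+ cells and did not pass the filter when only the 2 groups were fitted.

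Of the genes that fell, 2 carry monocarboxylates, the class to which short-chain fatty acids and ketone bodies belong. Slc16a7 was at 1.68 ± 2.399 CPM in brush and 38.8 ± 12 in EpCAM+ cells (-4.19 ± 0.58, adjusted p 2.96e-06, edgeR). Slc5a8 was at 2.00 ± 1.195 and 20.3 ± 8.55 CPM (-3.31 ± 0.54, adjusted p 3.00e-05). Fabp5, a fatty acid binding protein, was at 0.512 ± 0.475 and 5.70 ± 3.17 CPM (-3.12 ± 0.65, adjusted p 0.000456, edgeR). Fabp5 did not pass the filter when only the 2 groups were fitted. All 3 were named as the largest falls among called genes of the list, so their lower level in brush was set by that choice.

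**Figure D5:**
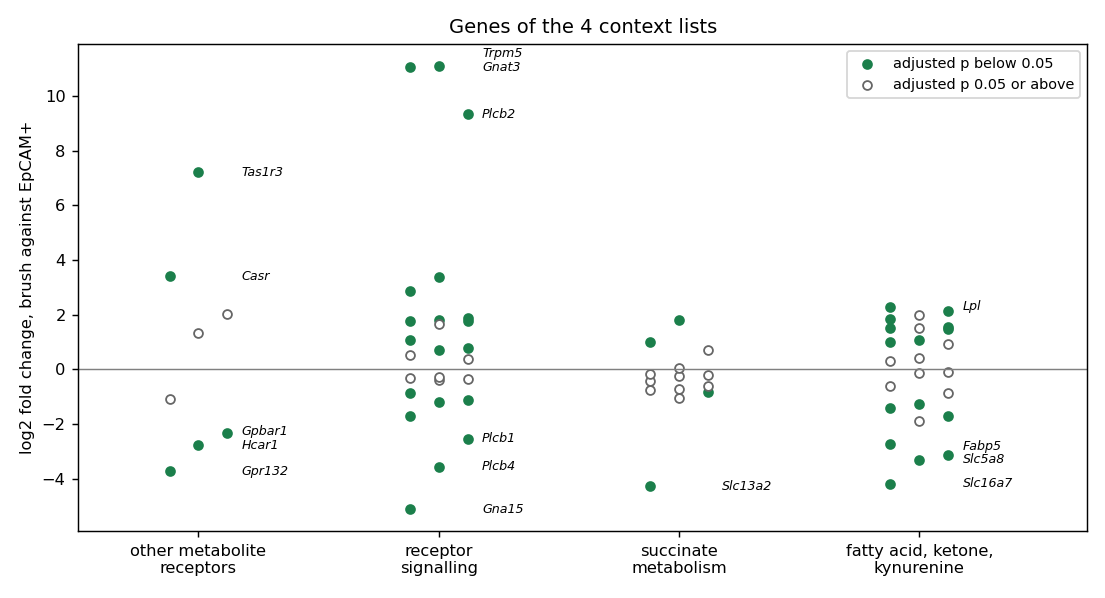
Log2 fold change of brush against EpCAM+ for the tested genes of the 4 context lists, one point per gene, filled where the adjusted p was below 0.05, on a linear axis in log2 units. Names mark called genes with large changes, from Trpm5 and Gnat3 near 11 to Gna15 at -5.12, and 10 of the 14 succinate genes were open points.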

How the data were processed

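RNA was measured in 18 libraries sorted from mouse trachea. Per the labels and the submitters' processing notes, the authors worked on the mm10 build and used RSEM 1.2.21, STAR 2.4.2a, DESeq2, featureCounts and Picard, named without their roles. No source used here names the annotation or the strand setting. The authors deposited a table of raw counts per gene and, for each library, RSEM files with expected counts, TPM and effective lengths per transcript. CPM and all tests here come from the counts. Libraries were scaled by TMM, low-count genes were dropped with edgeR's filterByExpr, and 1 edgeR 4.0.16 quasi-likelihood model (R 4.3.3) over all 3 groups gave the fold changes and SE. An adjusted p under 0.05 was a call. For Ffar1 and Ffar3 exact permutation tests were used. TPM was used to compare genes within a library. RSEM expected counts, rounded, served as an alternative. limma 3.58.1 and DESeq2 1.42.0 gave others, and the fits were tested on simulated data.

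Ribosomal RNA genes took 22.7% to 60.9% of counts in brush, 8.76% to 31.3% in EpCAM+ and 18.9% to 38.3% in CD45+ libraries. No 2 libraries of a group agreed within sampling noise (a chi-square of at least 6.11 per degree of freedom for each pair). Floors of 3 counts cover counting error only. All 7 members are named, and for each tested member the 4 genes most correlated with it among those with a mean of at least 5 CPM in a group. From each context list the up to 3 largest rises and falls among called genes are named. The members, lists and tests were chosen with earlier results of these data known, so the lists' directions are not independent evidence.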

Additional observations from a re-analysis of the deposited data

Results flagged for a closer look

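Of 15 sets of library values examined, each 1 receptor in 1 group with values that were not all 0, 5 held a library set apart from the rest of its group by Dixon's criterion at the 95% level. Chance sets apart about 1 in 20 groups of normally spread values, a rate that does not hold where many values are 0. The sets share libraries, and many values in them are 0. Where all other libraries of a group had 0, as for Gpr35 in brush and Ffar3 in EpCAM+, any count at all is set apart.

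Ffar2 in brush replicate 6 was at 2.99 CPM, where the other brush libraries ran from 0 to 0.544 CPM. Ffar2 in CD45+ replicate 1 was at 20.1 CPM, above the 4.71 to 6.86 CPM of the other 3. Hcar2 in that same library was at 11.5 CPM, below the 55.8 to 59.7 CPM of the others. Gpr35 in brush replicate 7 was at 1.19 CPM, and the other 6 brush libraries had 0. Ffar3 in EpCAM+ replicate 4 was at 0.404 CPM, from 3 counts, and the other 6 EpCAM+ libraries had 0.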

How the results depend on the processing

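The results were recomputed under 29 alternatives, of which 18 left out 1 library each. Of 831 values, 797 kept their direction and their side of the threshold (counts within 1.5 times). Sucnr1, Hcar2 and Ffar4 kept their calls in brush against EpCAM+ in all 29.

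With DESeq2, 1 in place of 2 members was lower in EpCAM+ against CD45+, since Ffar2 lost its call. The log2 fold change of Ffar2 in brush against EpCAM+, which was never called, changed sign with library totals for scaling (0.081), with limma voom (0.11) and without the 3 libraries that stand apart (0.26). Leaving out 1 library moved it from -3.12 to 1.26. Leaving out brush replicate 7 moved Gpr35 to a call in that comparison.

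Of the other metabolite receptors, 0 in place of 3 were called lower when only the 2 groups were fitted, because none of the 3 then passed the filter on low counts, and 1 to 3 when 1 library was left out. Of the succinate genes, 1 in place of 2 was called higher without ribosomal RNA genes and with RSEM counts, and 1 to 3 when 1 library was left out. Of these genes 1 in place of 2 was called lower with library totals, with limma voom, with only 2 groups and with the replicate block, and 1 to 3 when 1 library was left out. With only 2 groups the gene lost was Slc13a2, which did not pass the filter, and in the other 3 settings it was Slc25a10.

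Groups share replicate numbers, but same-numbered brush and EpCAM+ libraries correlated by -0.05 to 0.20 in their deviations, and not every library correlated best with its own number, so the numbers were not taken to pair them. With the replicate number as a block, 2374 genes were higher and 2661 lower in brush against EpCAM+, against 2459 and 2952 without it, and Gpr35 passed (-2.62 ± 0.81, adjusted p 0.0153).

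Scaling by library totals moved the median log2 fold change of all genes in brush against CD45+ from 0.05 to 0.24, and leaving out ribosomal RNA genes moved it to -0.11. Depth limits Ffar2, Ffar3 and the traces of Gpr35, and Ffar1 depends on the counting route.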

Other observations

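The 2 counting routes that the authors deposited differed most for Ffar1 in CD45+ cells, with 2 counts in all by one and 56 by the other. For the other 6 receptors the group sums were nearer to each other, and the RSEM sum was at or below the count table, such as 5831 against 5944 for Sucnr1 in brush, 1178 against 1284 for Ffar4 in EpCAM+ and 28 against 36 for Gpr35 in EpCAM+ cells. In the count table Ffar1 had 0, 1, 1 and 0 counts in CD45+ replicates 1 to 4, and in the RSEM files 5, 13, 36 and 2 expected counts. Both gave 0 in every brush and EpCAM+ library. Cd22, a gene of B cells, lies 3838 bases from Ffar1 on the same strand and was at 63.2, 91.7, 159 and 15.7 CPM in these 4 libraries. The summed level of 3 B cell genes was 859, 994, 1394 and 283 CPM. The TPM of Ffar1 was 1.84, 0.70, 1.07 and 0.10 in the same order. Replicate 4 was the lowest of the 4 in the TPM of Ffar1, in Cd22 and in the B cell sum, while the highest was replicate 1 for Ffar1 and replicate 3 for both others.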
